A study of Homo sapiens with 6 samples.

Results

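MCF10A is an immortalised, non-tumorigenic human mammary epithelial cell line, and open chromatin at 9 genes of the luminal hormone-receptor lineage was described in it: ESR1, PGR, FOXA1, GATA3, XBP1, SPDEF, TFF1, ELF5 and KIT. These genes were chosen by name as genes of the hormone-sensing and secretory luminal cells of the breast, out of 20033 protein-coding genes of the GENCODE v44 annotation. Each locus was the gene body with 20 kb on either side. Chromatin was assayed by ATAC-seq, in which a transposase cuts accessible DNA, and the regions that the caller HMMRATAC marked as open were available for 6 libraries in 3 groups of 2. All cells were the unmodified line, held in a HEPES-buffered Hanks solution without phosphate (HHBSS) for 30 min and then treated for 30 min: the untreated group with no addition, the TPA group with 50 µM tris(2-pyridylmethyl)amine, a zinc chelator, and the ZnCl2 group with 30 µM ZnCl2. The comparisons asked whether removing or adding labile zinc moved the open regions of these genes.

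In the breast, luminal cells line the ducts and carry the receptors for oestrogen and progesterone, while basal (myoepithelial) cells surround them. Oestrogen receptor alpha, encoded by ESR1, acts on genes such as PGR and TFF1, and the transcription factors FOXA1 and GATA3 help it to reach its sites in chromatin. ELF5 and KIT mark luminal progenitor and alveolar cells that mostly lack the receptor. MCF10A is widely regarded as basal-like and negative for the oestrogen receptor.

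The lists held between 18887 regions (ZnCl2 replicate 2) and 44641 regions (untreated replicate 2), with no read counts, so the sequencing depth behind a call is unknown. The number of calls in the 9 loci rose with the length of the list, with 8 calls in ZnCl2 replicate 2, 9 in untreated replicate 1, 13 in TPA replicate 1 and in ZnCl2 replicate 1, 15 in TPA replicate 2 and 19 in untreated replicate 2. Results are therefore also given for lists of equal number, the 18887 regions of each library with the highest scores. These are bulk libraries, in which a region open in fewer cells and a region less open in every cell cannot be told apart. With 2 libraries against 2, the two-sided exact permutation test cannot give a p below 0.333, so no difference of an individual gene could pass 0.05. The libraries of a group are called biological replicates in one place and technical in another, so the p-values refer only to these libraries.

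A start site was called open where a region overlapped the 500 bp on either side of the start of the canonical transcript. GATA3, FOXA1 and XBP1 were open at the start in all 6 libraries. KIT and ELF5 were open there in ZnCl2 replicate 1 and in no other library, and ESR1, PGR, SPDEF and TFF1 in none. Thus 3 of the 9 start sites were open in untreated replicate 1, untreated replicate 2, TPA replicate 1, TPA replicate 2 and ZnCl2 replicate 2, in which 51.1%, 61.4%, 55.1%, 57.2% and 46.7% of all protein-coding start sites were open. In ZnCl2 replicate 1 it was 5 of 9, beside 60.3%. So 3 of 9 genes (33.3%) were open in every library, beside 43.5% of all protein-coding genes. With equal numbers of regions XBP1 alone of the 9 stayed open in every library, beside 34.0% of all protein-coding genes. The 4 genes closed in every library stood beside 36.3% of all protein-coding genes, and the 2 open in some libraries beside 20.2%.

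How strong a start region was is given as its percentile, the share of regions in the same library with a lower score. XBP1, a transcription factor of the unfolded protein response that is abundant in oestrogen receptor-positive breast cells, stood highest of the 9 genes in 5 of 6 libraries, and FOXA1 stood above it in TPA replicate 2. Its start region stood at 80.8% and 79.0% in the untreated libraries, at 80.0% and 62.4% in the TPA libraries and at 83.8% and 65.1% in the ZnCl2 libraries. The 3 groups overlapped, the lowest values were those of TPA replicate 2 and ZnCl2 replicate 2, and the two-sided exact permutation p was 0.667 for TPA against untreated and 1 for ZnCl2 against untreated. Among the 5 genes with any call at the start, ELF5 had the weakest, at 3.52%.

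**Figure D1:**
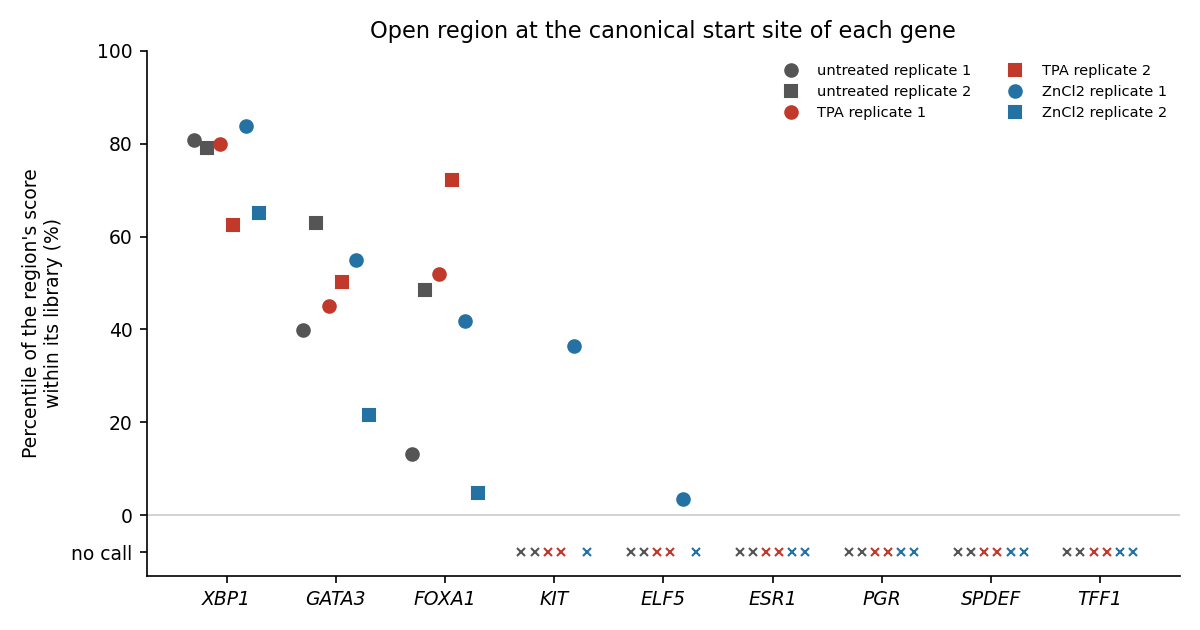
Percentile (%, vertical axis) of the open region at the canonical start site of each gene, by library (circles, replicate 1; squares, replicate 2; grey untreated, red TPA, blue ZnCl2); crosses on the line "no call" are libraries without a region there. XBP1 lies between 62.4% and 83.8%, the 2 TPA libraries lie highest for FOXA1, and 4 genes have crosses only.

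The start sites were then set beside their promoter sequence. RefSeq promoters on GRCh38.p14, each reaching from 250 bases before a start to 50 bases after it, were matched to 8 of 9 genes and gave 21 windows. TFF1 had no entry. A promoter was called CpG-rich where its GC content was at least 50% and its CpG ratio (observed over expected CG dinucleotides) at least 0.6. The 250 bases before the start of 2 genes open in all libraries and of 2 genes closed in all libraries are shown to make that contrast visible, 5′ to 3′ on the strand of the gene, with each CG dinucleotide in capitals. They are FOXA1 (chr14:37595250-37595499, minus strand), GATA3 (chr10:8054438-8054687, plus strand), PGR (chr11:101129814-101130063, minus strand) and SPDEF (chr6:34556330-34556579, minus strand).
FOXA1: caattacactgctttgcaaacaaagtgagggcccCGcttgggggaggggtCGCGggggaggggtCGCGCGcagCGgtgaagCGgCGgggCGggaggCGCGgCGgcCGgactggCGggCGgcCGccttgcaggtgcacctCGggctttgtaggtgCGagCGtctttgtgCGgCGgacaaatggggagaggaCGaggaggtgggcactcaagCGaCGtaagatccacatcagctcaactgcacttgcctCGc
GATA3: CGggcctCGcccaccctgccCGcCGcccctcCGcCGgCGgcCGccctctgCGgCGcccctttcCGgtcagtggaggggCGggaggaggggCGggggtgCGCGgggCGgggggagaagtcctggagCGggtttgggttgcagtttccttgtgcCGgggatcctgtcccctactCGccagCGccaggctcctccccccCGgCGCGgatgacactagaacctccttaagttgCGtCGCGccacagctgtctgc
PGR: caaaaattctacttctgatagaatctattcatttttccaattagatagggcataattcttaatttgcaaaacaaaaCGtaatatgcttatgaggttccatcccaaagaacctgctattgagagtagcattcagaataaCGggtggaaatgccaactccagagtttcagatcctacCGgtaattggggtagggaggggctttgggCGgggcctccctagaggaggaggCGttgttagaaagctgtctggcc
SPDEF: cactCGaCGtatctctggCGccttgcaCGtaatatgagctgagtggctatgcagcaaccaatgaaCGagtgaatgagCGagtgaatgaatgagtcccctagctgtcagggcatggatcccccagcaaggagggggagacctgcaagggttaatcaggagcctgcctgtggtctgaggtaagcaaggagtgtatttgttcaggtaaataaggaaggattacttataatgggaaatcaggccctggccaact
FOXA1 and GATA3 each held 26 CG dinucleotides in these bases, PGR 5 and SPDEF 6. Of the canonical promoters not shown, that of XBP1, open in all libraries, held 31 in the same bases. That of KIT, open only in ZnCl2 replicate 1, held 34, and that of ESR1, closed in all libraries, held 11. The contrast was smaller at the PGR promoters 736 and 750 bp downstream of the canonical start, which were also closed in all libraries. Each held 12 CG dinucleotides in the same bases, with CpG ratios of 0.51 and 0.54. All 5 promoter windows open in every library, those of FOXA1, of XBP1 (2 windows) and of GATA3 (2 windows), were CpG-rich. Over all RefSeq promoters, 61.8% of 13315 CpG-rich windows and 13.0% of 8882 CpG-poor windows were open in every library. CpG-rich windows without a call in every library were the canonical promoter of ESR1 (GC 58.3%, CpG ratio 0.67, closed in all libraries), that of KIT (GC 74.3%, CpG ratio 0.95, open only in ZnCl2 replicate 1) and a window at -4834 bp from the canonical GATA3 start (closed in all libraries). Among CpG-rich promoters 15.9% were closed in every library.

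ESR1, the gene of oestrogen receptor alpha on chromosome 6 (gene body 151656691 to 152129619, plus strand, hg38), was closed at all 6 of its RefSeq promoters in all 6 libraries, yet its locus, at 513 kb the longest of the 9, held more open sequence than any of the other 8 in all 6 libraries. Its 41 calls fell into 9 merged regions (regions of different libraries that overlap or touch), 4 of which were called in all 6 libraries. Over the 9 loci 8 of 18 merged regions were called in every library, beside 32.0% of all 49527 merged regions. The 8 included a region at the start of the neighbouring gene CCDC117, at the edge of the XBP1 locus. Only its calls in untreated replicate 2 and ZnCl2 replicate 2 reached into that locus. The 4 of ESR1 lay at -41.3, 91.9, 108 and 286 kb from the canonical start, negative values being upstream. The stretch shared by all 6 libraries was intronic in each of them.

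The region at 286 kb had the highest percentile of the ESR1 regions in all libraries but ZnCl2 replicate 2. Its shared stretch was chr6:152094941-152095780, and its percentile was 73.3% and 86.1% in the untreated libraries, 93.1% and 95.5% in the TPA libraries, and 81.7% and 41.2% in the ZnCl2 libraries. Both TPA libraries were above the other 4, and ZnCl2 replicate 2 was lowest. Of the 15852 merged regions called in every library, 22.9% had both TPA libraries above both untreated ones and 37.5% above both ZnCl2 ones. The region at 108 kb reached 70.7% and 74.7% in the untreated, 88.9% and 70.1% in the TPA and 70.0% and 43.9% in the ZnCl2 libraries, and its groups overlapped. The region at -41.3 kb stood at 42.6% and 65.7% in the untreated, 78.4% and 63.6% in the TPA and 66.6% and 53.2% in the ZnCl2 libraries, and its groups overlapped too. With equal numbers of regions, the regions at -41.3, 108 and 286 kb were still called in all 6 libraries, and that at 91.9 kb in 2.

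**Figure D2:**
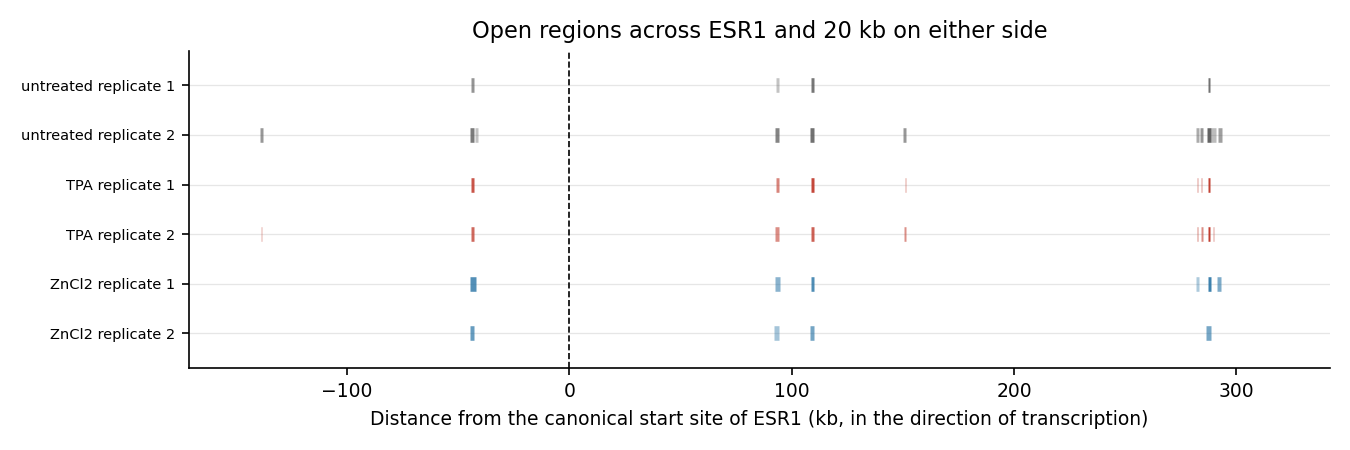
Open regions across ESR1 with 20 kb on either side, drawn as blocks by library (rows) against the distance in kb from the canonical start (dashed line, horizontal axis in the direction of transcription); darker blocks have a higher percentile. No block touches the start, and 4 columns of blocks run through all 6 libraries.

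The remaining 5 regions of ESR1 were called in 2 to 4 libraries, and untreated replicate 2, the longest list, had all of them. The regions at 150 and 284 kb were called in both TPA libraries and in untreated replicate 2, and in neither ZnCl2 library. At 150 kb the percentile was 39.5% in untreated replicate 2, 15.9% in TPA replicate 1 and 32.2% in TPA replicate 2. At 284 kb these were 41.2%, 23.9% and 34.3%, so none of these calls reached the middle of its list. Neither region had a call in any library once the lists were of equal number. The region at 282 kb was called in untreated replicate 2, both TPA libraries and ZnCl2 replicate 1, that at -138 kb in untreated replicate 2 and TPA replicate 2, and that at 291 kb, over an exon of ESR1, in untreated replicate 2 and ZnCl2 replicate 1.

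PGR, which encodes the progesterone receptor and is a known target of the oestrogen receptor, had no open region in any library across its 140 kb locus on chromosome 11, its 3 RefSeq promoters included. TFF1, a secreted trefoil peptide that is a standard oestrogen-response gene, had none across its 44.3 kb locus on chromosome 21. Of all protein-coding genes, 13.0% had no region in the gene body or its flanks in any library. SPDEF, an ETS factor of secretory luminal cells, had 1 merged region in its 58.5 kb locus on chromosome 6, and that lay 28.2 kb downstream of its start in an exon of the neighbouring gene PACSIN1. It was called at 13.1% and 41.2% in the untreated, 13.1% and 36.3% in the TPA libraries and at 48.4% in ZnCl2 replicate 1, and not in ZnCl2 replicate 2. No region thus lay over SPDEF itself in any library.

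FOXA1, a forkhead pioneer factor that opens chromatin for the oestrogen receptor, lies on chromosome 14 (gene body 37589552 to 37596059, minus strand). Its start region was 2360 to 2950 bp wide and also covered the start of TTC6, which is transcribed away from it, so a call there cannot be assigned to either gene. The percentile was 13.1% and 48.4% in the untreated, 52.0% and 72.1% in the TPA and 41.9% and 4.9% in the ZnCl2 libraries. Both TPA libraries lay above all 4 others. The TPA mean was 62.0% ± 14.2 (SD, n = 2), the untreated mean 30.8% ± 25.0 and the ZnCl2 mean 23.4% ± 26.2. TPA exceeded untreated by 31.3 points (two-sided exact permutation p = 0.333, the smallest the design allows), and 10.4% of the 8715 genes open at the start in every library also had both TPA libraries above both untreated ones. ZnCl2 and untreated overlapped, with a difference of -7.35 points (exact permutation p = 0.667). TPA exceeded ZnCl2 by 38.6 points (exact permutation p = 0.333), as both libraries did for 21.5% of those genes. Both contrasts use the same 2 TPA libraries. Ranked only among regions at start sites, the FOXA1 region stood at 5.53% and 16.7% in the untreated, 30.4% and 48.3% in the TPA and 14.9% and 2.38% in the ZnCl2 libraries, again with no overlap between TPA and either group. The percentiles come from lists of unequal length, with 25031 and 44641 regions in the untreated, 35902 and 41376 in the TPA and 38069 and 18887 in the ZnCl2 libraries. Counted from the top of its list, the FOXA1 region had rank 20817 and 22451 in the untreated, 16640 and 11198 in the TPA and 21523 and 17110 in the ZnCl2 libraries, so that ZnCl2 replicate 2 stood close to TPA replicate 1. The part of list length in these ranks was not tested.

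A further region of FOXA1 lay in intergenic DNA 14.4 kb downstream of the start. It was called in both TPA libraries, at 52.0% and 56.0%, in untreated replicate 2 at 17.1%, and in no ZnCl2 library. With equal numbers of regions it stayed in both TPA libraries alone, and the start region stayed in both TPA libraries and in ZnCl2 replicate 2, whose list is not shortened by that step. Neither untreated library kept a FOXA1 region on those lists.

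GATA3, a zinc-finger factor required for the luminal lineage, lies on chromosome 10 (gene body 8045378 to 8075198, plus strand). Its start region, which also covered exons of the antisense RNA gene GATA3-AS1, stood at 39.9% and 63.0% in the untreated, 45.1% and 50.3% in the TPA and 55.0% and 21.6% in the ZnCl2 libraries. In GATA3 the groups overlapped, and the exact permutation p was 1 for TPA against untreated and 0.667 for ZnCl2 against untreated. The width of this region varied more than that of the other start regions. It was 2380 and 8070 bp in the untreated, 3520 and 7480 bp in the TPA and 3670 and 3510 bp in the ZnCl2 libraries. The wide calls were those of the libraries with the longest lists, untreated replicate 2 and TPA replicate 2, and the part of list length in this was not tested. With equal numbers of regions the start of GATA3 was called in both untreated and both ZnCl2 libraries and in neither TPA library. Among the start regions of GATA3, FOXA1 and XBP1, no rank was lower in both TPA than in both untreated libraries (23.7% of the 8715 genes), and none separated ZnCl2 from untreated (2.52% higher, 13.3% lower). None was lower in TPA than in ZnCl2 either (17.8%). The GATA3 ranks from the top in the TPA libraries were 19063 and 19946, just outside the 18887 regions kept.

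**Figure D3:**
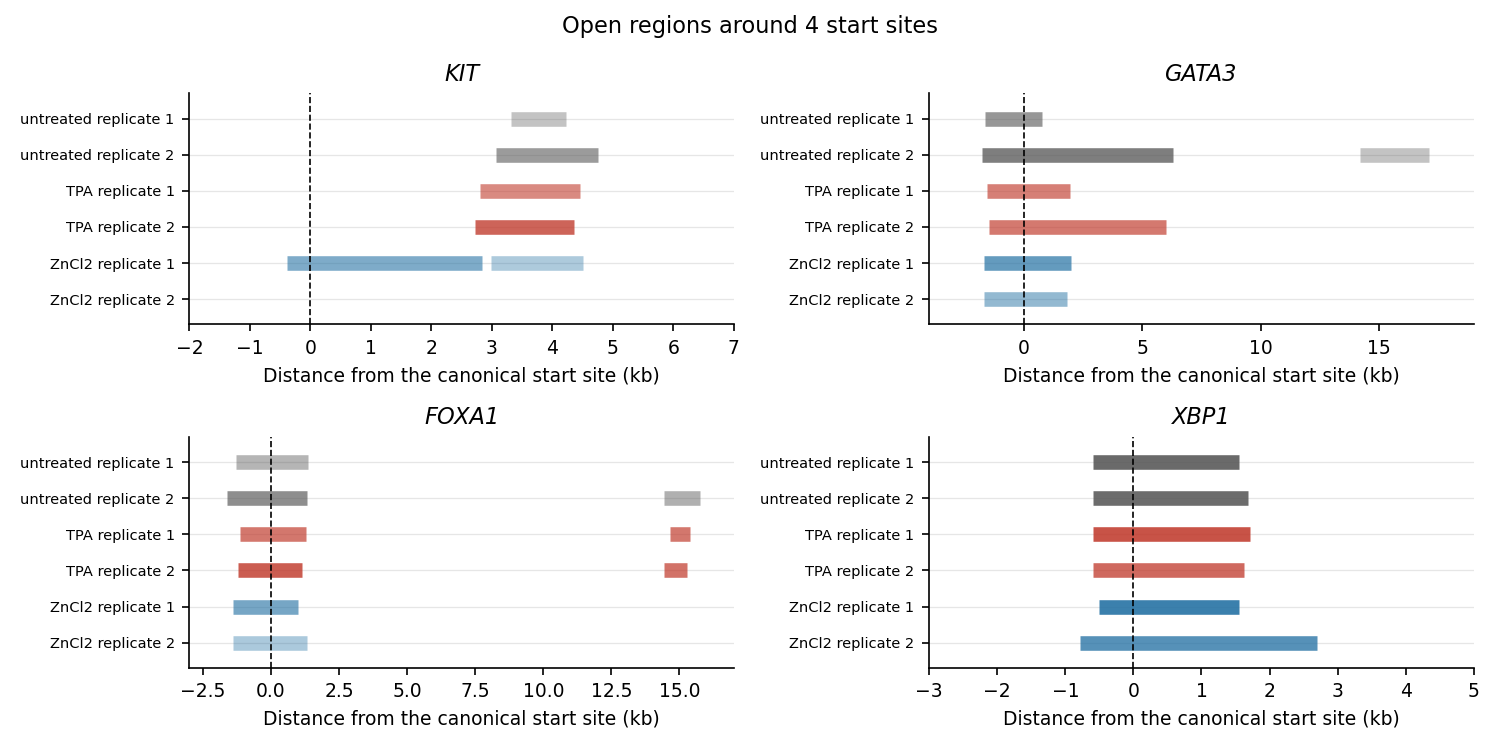
Open regions around the start sites of KIT, GATA3, FOXA1 and XBP1 by library (rows), against the distance in kb from the canonical start (dashed line, in the direction of transcription); darker blocks have a higher percentile. At KIT a block covers the start only in ZnCl2 replicate 1, and the blocks of GATA3 reach past 6 kb in untreated replicate 2 and TPA replicate 2.

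KIT, the receptor tyrosine kinase that marks luminal progenitors, lies on chromosome 4 (gene body 54657267 to 54740783, plus strand). An intronic region, which over the libraries spanned 2714 to 4753 bp downstream of the start, was called in 5 libraries, at 0.0% and 36.0% in the untreated, 37.4% and 67.0% in the TPA libraries and 3.52% in ZnCl2 replicate 1. ZnCl2 replicate 2 had no region in the locus. TPA replicate 2 stood highest, and TPA replicate 1 and untreated replicate 2 were close. Both TPA libraries were above both untreated ones in 25.0% of the 22309 merged regions called in these 4 libraries. The start of KIT was covered only in ZnCl2 replicate 1, by a call of 3220 bp at 36.4%. ELF5, an ETS factor of alveolar progenitors on chromosome 11, had 1 call over the 6 libraries, again in ZnCl2 replicate 1. It was 940 bp wide, intronic and 234 bp downstream of the canonical start. The RefSeq promoter matched to ELF5, 2070 bp downstream of that start, was closed in all libraries. For KIT and for ELF5, a canonical start open in ZnCl2 replicate 1 alone was also found at 210 other protein-coding genes (1.05%). Each of these 2 genes is among the 210 of the other. The part of that library's list length or overall openness in these 2 calls was not tested.

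Open sequence in each locus was summed to compare the treatments over whole loci. At ESR1 it came to 4.92 and 16.63 kb in the untreated, 7.14 and 8.71 kb in the TPA and 10.29 and 8.46 kb in the ZnCl2 libraries. All 4 treated values lay between the untreated ones. At GATA3 the values were 2.38 and 10.99 kb in the untreated, 3.52 and 7.48 kb in the TPA and 3.67 and 3.51 kb in the ZnCl2 libraries, in the same arrangement. XBP1 held 2.16 and 2.35 kb in the untreated, 2.31 and 2.22 kb in the TPA and 2.06 and 3.99 kb in the ZnCl2 libraries, part of which in untreated replicate 2 and ZnCl2 replicate 2 was the edge of a region at the start of the neighbour CCDC117.

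None of the 9 genes had both TPA libraries above or both below the untreated ones, beside 2.07% of 17419 genes above and 7.99% below. None separated ZnCl2 from untreated either, beside 3.52% above and 2.53% below. The adjusted p from the exact permutation test, by Benjamini-Hochberg over the 17419 genes, was 1 for every member with a region in both of these comparisons. Between TPA and ZnCl2, FOXA1 alone among the 9 genes did not overlap. It held 3.14 and 3.19 kb in the TPA libraries and 2.41 and 2.74 kb in the ZnCl2 libraries, a difference of 0.59 kb (exact permutation p = 0.333, adjusted p = 0.77), beside 10.4% of genes higher and 32.9% lower in TPA. The difference rested on the downstream region: with flanks of 5 kb, which leave it out, it was -0.18 kb. With equal numbers of regions FOXA1 had more open length in both TPA than in both untreated libraries (3.14 and 3.19 kb against none, beside 5.01% of 15634 genes) and GATA3 less (none against 2.38 and 8.07 kb, beside 23.0%). On these lists FOXA1 also had more in TPA than in ZnCl2 (beside 7.12%), ESR1 and GATA3 had less (beside 51.5%), and no member separated ZnCl2 from untreated (14.9% higher, 4.71% lower).

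**Figure D4:**
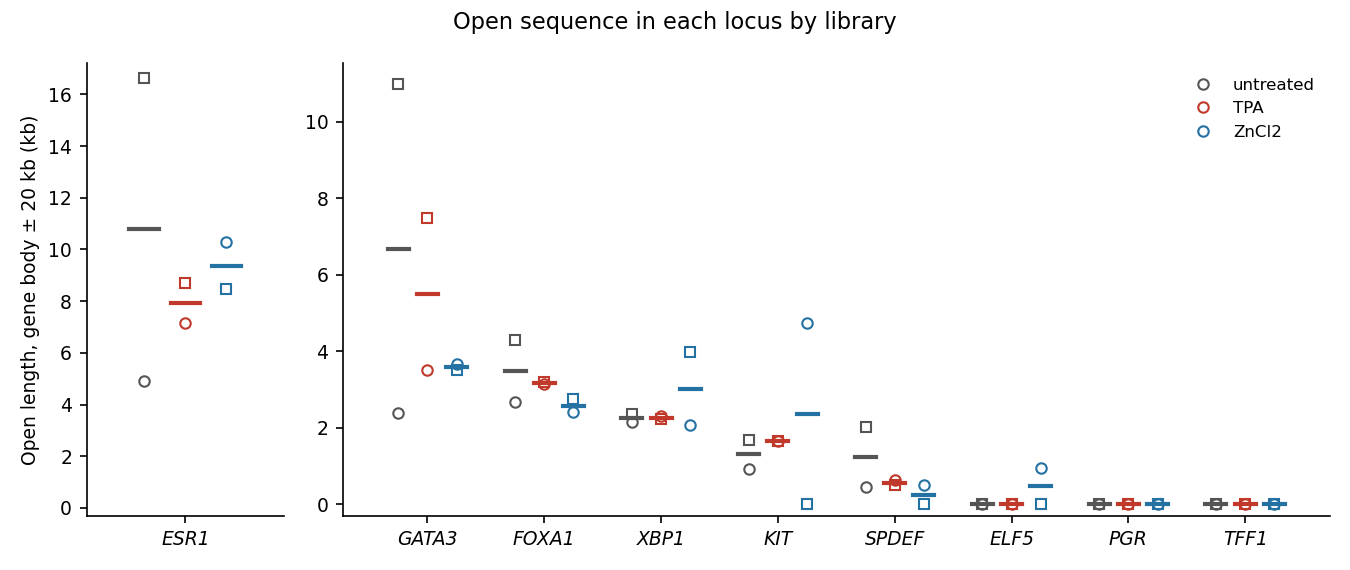
Open sequence in kb (vertical axes, separate scale for ESR1) in the gene body with 20 kb on either side, for each gene and library (circles, replicate 1; squares, replicate 2) with the mean of each group as a bar. The untreated libraries lie widest apart at ESR1, with 4.92 and 16.63 kb, and PGR and TFF1 are at 0 throughout.

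Region by region, none of the 18 merged regions of these loci was gained (called in both libraries of the first group and in neither of the second) or lost in TPA against untreated, where 2.04% of all merged regions were gained and 0.703% lost. None was gained or lost in ZnCl2 against untreated, where the shares were 0.172% and 1.73%. In TPA against ZnCl2, 3 of 18 were gained, the ESR1 regions at 150 and 284 kb and the downstream region of FOXA1, and none was lost, beside 9.73% and 0.991% of all merged regions. ZnCl2 replicate 2 had the shortest list, and the part of list length in this count was not tested. With equal numbers of regions, TPA against ZnCl2 had 1 gained, downstream of FOXA1 (beside 7.81%), and 2 lost, the GATA3 start and the CCDC117 start at the edge of the XBP1 locus (beside 8.31%). TPA against untreated then had 2 gained, both of FOXA1 (beside 3.79%), and 1 lost, the GATA3 start (beside 4.55%), and ZnCl2 against untreated had none (3.2% gained, 3.64% lost).

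Sequences of several regions are shown, the 3 gained in TPA against ZnCl2, the ESR1 regions at 286 and 108 kb called in every library and the KIT intron. Each is given as the 300 bases at the centre of the stretch called in most libraries, on the plus strand of hg38. Every match to the AP-1 motif TGANTCA is in capitals. AP-1 factors are made of JUN and FOS proteins and bind many regulatory regions of epithelial cells. The sequences are the ESR1 regions at 286 kb (chr6:152095211-152095510) and 108 kb (chr6:151916866-151917165), those at 150 kb (chr6:151958511-151958810) and 284 kb (chr6:152091981-152092280), the KIT intron (chr4:54661581-54661880) and the region downstream of FOXA1 (chr14:37580127-37580426).
ESR1 at 286 kb: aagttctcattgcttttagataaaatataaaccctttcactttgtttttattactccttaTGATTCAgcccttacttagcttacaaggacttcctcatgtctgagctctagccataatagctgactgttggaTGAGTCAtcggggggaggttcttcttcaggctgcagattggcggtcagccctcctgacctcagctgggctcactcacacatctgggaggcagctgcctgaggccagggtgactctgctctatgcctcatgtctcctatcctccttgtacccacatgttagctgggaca
ESR1 at 108 kb: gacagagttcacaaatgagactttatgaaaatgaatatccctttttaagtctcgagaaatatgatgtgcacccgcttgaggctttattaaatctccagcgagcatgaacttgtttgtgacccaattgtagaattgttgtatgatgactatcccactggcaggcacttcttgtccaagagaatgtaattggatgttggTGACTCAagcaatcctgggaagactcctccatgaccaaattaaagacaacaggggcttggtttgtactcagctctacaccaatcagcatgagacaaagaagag
ESR1 at 150 kb: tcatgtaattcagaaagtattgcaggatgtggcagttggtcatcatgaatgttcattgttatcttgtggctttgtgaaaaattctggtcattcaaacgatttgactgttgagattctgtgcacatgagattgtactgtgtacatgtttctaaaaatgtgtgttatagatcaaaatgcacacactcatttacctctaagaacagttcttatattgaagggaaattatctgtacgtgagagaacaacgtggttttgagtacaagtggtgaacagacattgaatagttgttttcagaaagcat
ESR1 at 284 kb: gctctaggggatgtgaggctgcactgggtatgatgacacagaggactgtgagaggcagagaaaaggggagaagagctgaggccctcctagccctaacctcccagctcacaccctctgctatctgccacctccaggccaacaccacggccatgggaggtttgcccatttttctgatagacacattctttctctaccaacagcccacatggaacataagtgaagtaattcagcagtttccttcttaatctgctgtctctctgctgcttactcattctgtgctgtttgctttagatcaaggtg
KIT intron: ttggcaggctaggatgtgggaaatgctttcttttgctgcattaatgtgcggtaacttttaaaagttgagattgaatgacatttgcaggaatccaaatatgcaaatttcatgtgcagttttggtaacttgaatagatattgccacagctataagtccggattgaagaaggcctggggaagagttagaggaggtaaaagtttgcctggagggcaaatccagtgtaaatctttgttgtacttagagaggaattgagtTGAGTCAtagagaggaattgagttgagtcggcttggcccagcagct
FOXA1 downstream: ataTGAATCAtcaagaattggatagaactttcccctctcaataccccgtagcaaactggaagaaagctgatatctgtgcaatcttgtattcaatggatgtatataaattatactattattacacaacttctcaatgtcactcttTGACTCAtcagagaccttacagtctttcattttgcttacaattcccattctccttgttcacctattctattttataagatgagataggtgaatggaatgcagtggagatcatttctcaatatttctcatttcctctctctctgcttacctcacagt
In the order shown, the 6 windows held 2, 1, 0, 0, 1 and 2 matches. They were chosen with the matches known. Of all 18 windows, 6 held a match. Of the 12 member regions away from protein-coding start sites, 5 held an AP-1 match (41.7%), beside 43.8% of 38481 such regions genome-wide. The KIT region shown is not among these 12, because its merged region reaches the KIT start. GATA motifs (AGATAA) were in 2 of these 12 (16.7%, beside 14.0%) and TEAD motifs (GGAATG) in 4 (33.3%, beside 23.4%). Both strands were searched. None of the 18 windows held the full palindromic oestrogen response element or the forkhead motif TGTTTAC, which were in 0.0242% and 4.25% of all merged regions. These counts describe letters in 300 bases and not binding.

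Gene lists of related roles gave the setting. Of 19 other luminal genes, 5 were open at the start in every library (ALDH1A3, ERBB2, KRT18, MUC1 and TBX3), 10 in some, and 4 in none (EHF, KRT19, LTF and STAT5A). The 10 were CD24, CDH1, ELF3, EPCAM, ERBB3, GRHL2, KRT7, KRT8, SLPI and STAT5B. Of 19 hormone-response genes, 1 was open in every library (NAT1), 8 in some (AGR2, AREG, CA12, CCND1, CITED1, GREB1, MYB and WNT4) and 10 in none (among them AGR3, CXCL12, ERBB4, ESR2, PRLR, RET, SCUBE2, TFF3 and TNFSF11). The prolactin receptor (PRLR) and oestrogen receptor beta (ESR2) were thus closed along with ESR1 and PGR. Of 15 cofactors and partners of the oestrogen receptor, 12 were open in every library and 3 in some (NCOA1, NCOA3 and TLE3). Such cofactors are used by most cell types.

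Of 19 basal and myoepithelial genes, 7 were open in every library (among them CAV1, ITGA6, ITGB4, LAMB3, SNAI2 and VIM), 9 in some (ACTA2, CDH3, EGFR, KRT14, KRT17, KRT5, KRT6A, OXTR and TRIM29) and 3 in none (CNN1, MYH11 and TP63, each read at its canonical start only). Luminal keratin 18 was open in all libraries, while KRT7 was open in 5, KRT8 in 3 and KRT19 in none. The laminin chain LAMB3 of the basement membrane was also open in all libraries. Of the keratins in the basal list, KRT5, KRT6A and KRT17 were open in 5 libraries and KRT14 in 4. Of the markers of mammary epithelium, KRT5, KRT14, KRT18, CDH1 and EPCAM were each open in 3 to 6 libraries, and KRT19 and TP63 in none. Of 16 markers of cells from other tissues, 2 were open in every library (CD14 and COL1A1), 1 in some (GFAP) and 13 in none. As shares open in every library, the 9 lineage genes had 33.3%, the other luminal genes 26.3% and the hormone-response genes 5.26%. The receptor cofactors had 80.0%, the basal genes 36.8% and the markers of other cells 12.5%, beside 43.5% of all protein-coding genes. These shares depend on the shortest list, ZnCl2 replicate 2. Of the basal genes, CDH3, EGFR, KRT17, KRT5 and KRT6A were closed only in that library. So were KRT7 and SLPI of the other luminal genes, and NCOA3 and TLE3 of the receptor cofactors. No lineage gene and no hormone-response gene was closed in that library alone.

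**Figure D5:**
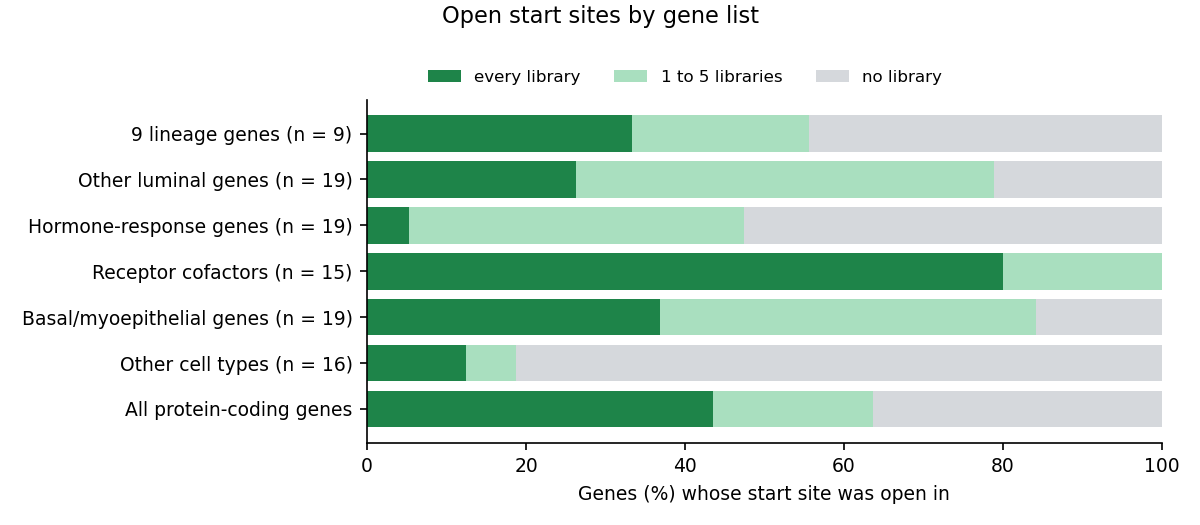
Share of genes (%, horizontal axis) in each list whose canonical start was open in every library (dark green), in 1 to 5 libraries (light green) or in no library (grey). Receptor cofactors have the longest dark bar at 80.0% and hormone-response genes the shortest at 5.26%, beside 43.5% for all protein-coding genes.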

How the data were processed

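ATAC-seq was performed in 6 libraries of MCF10A cells (2 untreated, 2 TPA, 2 ZnCl2). Per the labels, the submitters' processing notes name FastQC 0.11.8, HISAT2 2.1.0, SAMtools 1.8 and build hg38; the authors called open regions per library with HMMRATAC. The deposited files list each region with a score, a whole number of 30 or more in every file; what kind of score HMMRATAC was set to give is not given in the sources used here. The files hold no counts, so no count test was possible.

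Calls outside the autosomes and sex chromosomes were dropped, and the others were overlapped by at least 1 bp with GENCODE v44 loci and start sites. Scores were used only as percentiles within a library. Groups were compared by two-sided exact permutation tests and by counts of genes or merged regions that separated the groups; the replicate number was not in the main comparison. All 9 member genes are named; of each list, classes of up to 10 genes are named, except for items not reported here. The members and gene lists were chosen with earlier results of these data known. Sequences came from RefSeq (GRCh38.p14) and hg38. The overlap and test code was checked on simulated data for TPA versus untreated. There 200 regions were planted in both TPA libraries and in no untreated library, and were read at their own positions. All were recovered (100.0%), which checks the code and does not measure the power to detect a change. Alternatives covered list length, score threshold, start window, flank, overlap, pairing and leaving out each library. Scripts ran in Python 3.11.15 with pysam 0.24.0, SciPy 1.17.1, Matplotlib 3.10.9, NumPy 2.4.6 and pandas 2.3.3.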

Additional observations from a re-analysis of the deposited data

How the results depend on the processing

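Of 130 recomputed counts, 81 stayed within 1.5 times the main count and 49 moved. The sign was not reversed in 144 of 168 differences in open length and 36 of 45 in rank. Differences of 0 were counted as not reversed. The replicate block repeats the main difference and could not reverse it, so these shares overstate how stable the differences were. Genes open at the start in every library fell from 3 to 1 both with equal numbers of regions and with the upper 50% of each list, and XBP1 was the 1 that remained under equal numbers. Equal numbers gave 1 gene with more and 1 with less open length in TPA than untreated (0 and 0), 2 gained and 1 lost regions (0 and 0), and in TPA against ZnCl2 2 genes with less (0), 1 gained (3) and 2 lost (0). The upper 50% gave 1 gene with more open length and 2 gained regions in TPA against untreated. Flanks of 5 kb gave 1 gene with less in TPA than untreated and 0 with more than ZnCl2 (1). Requiring 50% of the merged region to be covered gave 1 lost against untreated, and 1 gained and 1 lost against ZnCl2. The cause was not tested. Shares over all genes or regions were computed only for the main and the equal-number lists. Counts under the other settings, here and below, have no such share beside them and are not results about these genes.

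Among single genes, the difference in open length of FOXA1 turned from -0.32 to 3.16 kb in TPA against untreated under equal numbers and under the upper 50%, from -0.9 to 1.37 kb in ZnCl2 against untreated under equal numbers, and from 0.59 to -0.18 kb in TPA against ZnCl2 with flanks of 5 kb. ESR1 turned from -1.4 to 1.57 kb in ZnCl2 against untreated under equal numbers and from -1.45 to 0.43 kb in TPA against ZnCl2 under the upper 50%. In TPA against ZnCl2 GATA3 turned from 1.91 to -3.59 kb under equal numbers, and KIT from -0.72 to 0.82 kb under both shortened lists.

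Leaving out 1 library moved the TPA against untreated counts from 0 to 6 genes with more open length and 0 to 4 gained regions (each highest without untreated replicate 2), and 0 to 6 genes with less and 0 to 2 lost regions (each highest without untreated replicate 1). For ZnCl2 against untreated the ranges were 0 to 2 genes with more, 0 to 4 with less, 0 to 1 gained and 0 to 5 lost (the highest of less and lost without untreated replicate 1). For TPA against ZnCl2 they were 2 to 4 with more, 0 to 3 with less, 3 to 6 gained (6 without ZnCl2 replicate 1) and 0 to 2 lost. Open length changed sign for TPA against untreated at ESR1 (-8.7 to 3 kb), FOXA1 (-1.14 to 0.5), GATA3 (-5.49 to 3.12), KIT (-0.03 to 0.73), SPDEF (-1.44 to 0.1) and XBP1 (-0.08 to 0.1); for ZnCl2 against untreated at ESR1 (-7.26 to 4.46), GATA3 (-7.4 to 1.21), KIT (-1.3 to 3.44) and XBP1 (-0.19 to 1.73); and for TPA against ZnCl2 at GATA3 (-0.07 to 3.89), KIT (-3.09 to 1.65) and XBP1 (-1.72 to 0.2). Without 1 library, an alternative that for ranks was chosen after seeing the data, the difference in rank changed sign at FOXA1 for ZnCl2 against untreated (-25.9 to 11.1 points), at GATA3 for TPA against untreated (-15.3 to 7.8), ZnCl2 against untreated (-29.9 to 3.55) and TPA against ZnCl2 (-7.3 to 26.1), and at XBP1 (-17.5 to 0.1, -14.8 to 3.9 and -12.6 to 6.1).

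The labels share replicate numbers but name no shared batch, and the study's methods do not use the numbers, so they were not taken as pairs. Deviations of same-numbered libraries over 20033 genes correlated at 0.13 for TPA and untreated, -0.46 for ZnCl2 and untreated and -0.03 for TPA and ZnCl2. With 2 libraries in each group and lists of unequal length, these correlations cannot show whether libraries were paired. The replicate block (smallest exact p 0.5) gave a mean of 2 gained and 1 lost regions for TPA against untreated, 1.5 gained, 4.5 lost and 1 gene with less open length for ZnCl2 against untreated, and 5 gained, 1 lost and 2 genes with more for TPA against ZnCl2. Crossed numbers, added after seeing the data, gave 0.5 gained, 3.5 lost and 1 gene with less for ZnCl2 against untreated.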
